A study of Mus musculus with 19 samples.

Results

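SOX3 occupancy at 10 immediate early genes was examined in mouse testis at postnatal day 7 (P7). The genes were Jun, Junb, Jund, Fos, Fosb, Fosl2, Atf3, Egr1, Ier2 and Myc, 10 of the 26182 RefSeq genes on the chromosomes used. They were picked by name with their SOX3 peaks already known, so peak presence, width, q score and log2 ratio are given as descriptions, without a test. For each gene the peaks within 2 kb of its transcription start site (TSS) and in its body were taken from the SOX3 ChIP-seq peak list of each replicate.

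The study mapped the transcription factors ZBTB16, SALL4 and SOX3 and histone modifications in juvenile mouse testis and in THY1+ undifferentiated spermatogonia. Of 19 labelled samples, 4 had a processed file that was used here. SOX3 was mapped in 2 replicates by ChIP-seq and in 2 by ChIP-nexus, a variant in which an exonuclease trims the precipitated DNA. All 4 came from P7 testis, with a pair of SOX3 antibodies named for the ChIP-seq libraries (SCBT sc-101155 and EMD Millipore AB5772). Strain, genotype and treatment are not in the labels, and the study's methods describe tubules pooled from several mice. Such tissue holds spermatogonia and somatic cells together. From the lists alone a peak could therefore not be assigned to a cell type. They carry no expression values against which the tissue could be checked. The paper describes SOX3 as specific, within the testis, to undifferentiated spermatogonia, and stained P7 sections for it.

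Immediate early genes are transcribed within minutes of a growth factor or stress signal, without prior protein synthesis. Several of them encode subunits of AP-1, a dimeric transcription factor formed by JUN proteins with each other or with FOS or ATF partners through a leucine zipper. Their transcription units are mostly short, and their promoters are typically kept open and rich in CpG. JUND differs from its relatives in being present in many unstimulated cells.

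A q score is 10 times the negative log10 of the FDR-adjusted p-value that the peak caller gave a peak, and only peaks with a q score above 30 were listed. A log2 ratio is taken to be that of ChIP over input, since the columns of the lists are unnamed. Some separate peaks carry the same pair of values. Near Jund in replicate 2, peaks of 1370 and 1208 bp both have a q score of 55.4 and a log2 ratio of 2.80. Whether the values describe a whole peak or a part of it is not given. Replicate 1 held 58351 peaks with a median width of 738 bp and replicate 2 held 38832 peaks with a median width of 697 bp. The lists contain no read counts, so the depth behind a peak is unknown, and with 2 replicates no test between them was possible.

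The sequence just upstream of the starts is shown first, because the peaks described here cover it in both replicates. Of the 10 genes, 7 were matched in the RefSeq promoter table (GRCm38.p6, the assembly of mm10), and Egr1, Ier2 and Myc were not. The 200 bases that end at the base before the RefSeq start are printed 5′ to 3′ on the coding strand for 5 genes. Capitals mark the short motifs searched.
Jund: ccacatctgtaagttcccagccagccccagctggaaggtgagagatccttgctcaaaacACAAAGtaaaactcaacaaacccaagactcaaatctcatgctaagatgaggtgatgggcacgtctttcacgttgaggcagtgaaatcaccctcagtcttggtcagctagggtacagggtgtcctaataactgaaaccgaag
Jun: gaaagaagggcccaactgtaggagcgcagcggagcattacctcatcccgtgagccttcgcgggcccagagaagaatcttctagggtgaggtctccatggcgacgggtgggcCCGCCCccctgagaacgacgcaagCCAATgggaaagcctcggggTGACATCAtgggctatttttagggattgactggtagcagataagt
Junb: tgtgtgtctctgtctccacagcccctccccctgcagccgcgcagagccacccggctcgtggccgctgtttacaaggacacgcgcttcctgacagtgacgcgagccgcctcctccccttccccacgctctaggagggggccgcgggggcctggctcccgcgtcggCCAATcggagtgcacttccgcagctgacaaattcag
Fos: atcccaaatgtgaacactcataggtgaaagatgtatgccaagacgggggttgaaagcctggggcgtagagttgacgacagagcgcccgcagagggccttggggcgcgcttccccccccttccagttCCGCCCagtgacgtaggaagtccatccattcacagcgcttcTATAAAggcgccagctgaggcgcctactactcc
Atf3: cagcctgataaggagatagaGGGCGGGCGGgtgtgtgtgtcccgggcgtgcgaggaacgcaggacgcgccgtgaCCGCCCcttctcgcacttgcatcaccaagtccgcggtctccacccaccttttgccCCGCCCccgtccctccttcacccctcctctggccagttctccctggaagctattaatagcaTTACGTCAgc
These stretches lie at chr8:70697539-70697738 (plus strand) for Jund, chr4:95052223-95052422 (minus strand) for Jun, chr8:84978749-84978948 (minus strand) for Junb, chr12:85473690-85473889 (plus strand) for Fos and chr1:191183334-191183533 (minus strand) for Atf3.

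The Jund stretch stood apart in base composition. It held 3 CpG dinucleotides, against 11 for Jun, 12 for Fos, 16 for Atf3 and 18 for Junb, and against a median of 5 over the 32851 starts in the table. Its GC content was 48.0%, while the other 4 lay between 58.0% and 68.0%. Motifs were searched as exact words on both strands in the 250 bases before each start. The GC box GGGCGG was found for Jun, Fos, Fosb, Fosl2 and Atf3 and before 32.7% of all starts. A CCAAT box (CCAAT) was found for Jun and Junb and before 33.8% of all starts. The TATA box TATAAA was found for Fos, at −33 to −28 from the start, and before 12.4% of all starts.

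The palindromic cAMP response element TGACGTCA and the AP-1 site TGACTCA were found before none of the 7 starts, against 1.55% and 4.46% of all starts. A pair of near-matches was added after the sequences had been seen. TGACATCA lay at −45 to −38 from the Jun start and before 2.93% of all starts, and TTACGTCA lay at −10 to −3 from the Atf3 start and before 0.447% of all starts. Of the SOX-type words, ACAAAG was found for Jund only among the 7, at −141 to −136 from the RefSeq start, and before 16.5% of all starts. AACAAT was found for none of the 7 and before 9.42% of all starts. The E-box CACGTG (6.02% of all starts) and the CArG box (1.47%) were found for none of the 7 in the window searched. Bases further upstream were not searched for either, and Egr1, Ier2 and Myc were not among the 7. Whether these genes lack either element was therefore not tested. No word shared bases with another in the stretches printed, except that a pair of GC boxes for Atf3 overlapped each other. A match describes letters in the window, not a bound site.

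SOX3 peaks lay at the promoter of all 10 genes in both replicates. Across all 26182 genes, 62.7% had a promoter peak in replicate 1, 54.7% in replicate 2 and 52.2% in both. The strongest promoter peaks of the 2 replicates overlapped by at least 50% of the narrower for 10 of 10 genes. Such overlap was found for 12744 of the 13665 genes with a promoter peak in both replicates, which is 48.7% of all genes. All 20 strongest promoter peaks of the set covered the start itself. The same count was not made for other genes, so whether it is usual was not tested. The peaks were also wide. In replicate 1, 10 of 10 were 3 kb or wider, against 7.68% of all genes, in replicate 2 the share was 8 of 10, against 2.26%, and the same 8 had a wide peak in both, against 1.94%. The 2 genes under 3 kb in replicate 2 were Atf3 and Myc. Over the 10 genes the median width was 5593 bp (replicate 1) and 4962.5 bp (replicate 2; mean 5278 ± 446 bp, SD, n = 2). For the 13665 genes with a promoter peak in both replicates the medians were 1767 and 1358 bp.

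**Figure D1:**
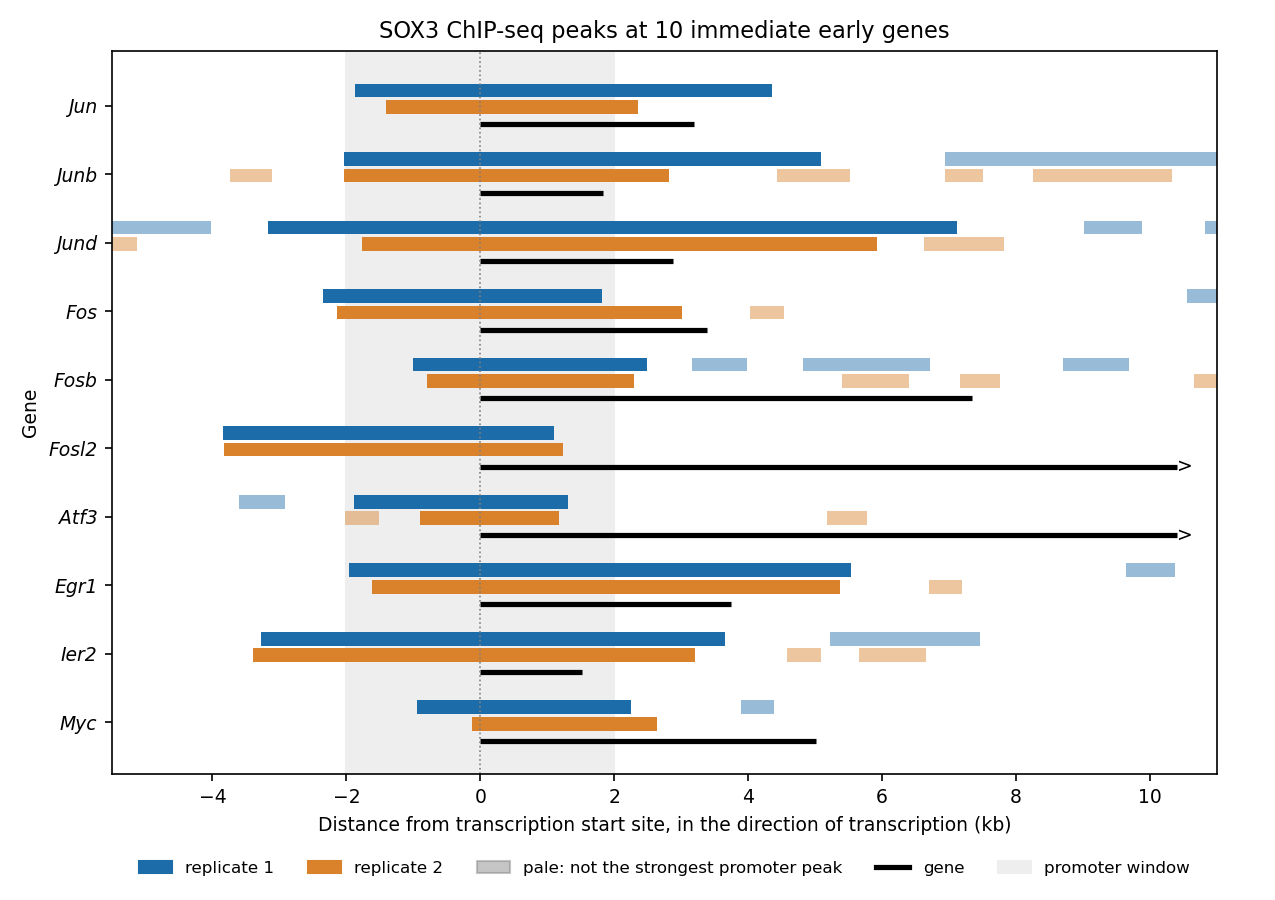
SOX3 ChIP-seq peaks around the start of each gene. The horizontal axis is distance from the RefSeq start in kb along the direction of transcription, each gene has a row with replicate 1 above replicate 2, black bars are the genes and the grey band is the promoter window of 2 kb on either side. The strongest promoter peaks (full colour) cover the start in all 20 cases, and for Junb, Jund, Egr1 and Ier2 they run past the end of the gene in both replicates.

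The JUN genes encode the core subunits of AP-1, and Jund and Jun had the highest q scores of the set in both replicates. Jund (chr8:70697739-70700616, plus strand, a gene of 1 exon) had a peak of 10292 bp in replicate 1 and 7692 bp in replicate 2. Its q score was 2118 and 1099, and its log2 ratio was 6.36 and 4.45. By q score this was the third strongest of 58351 peaks in replicate 1 and the tenth of 38832 in replicate 2, and by width it ranked 57 and 10. It reached from 3163 bp upstream of the RefSeq start to 7128 bp downstream in replicate 1, and from 1760 bp upstream to 5931 bp downstream in replicate 2. The peak of replicate 2 lay entirely inside that of replicate 1. The mean width was 8992 ± 1838 bp and the mean q score 1609 ± 721 (SD, n = 2).

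The Jund peak also contained the start of Iqcn, a gene on the same strand whose start lies 4286 bp downstream of the Jund start and 1409 bp beyond the Jund end. The 2 genes therefore share this peak, and its values cannot be divided between them. For the other 9 genes the strongest promoter peak contained no start of another RefSeq gene in either replicate.

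Jun (chr4:95049036-95052222, minus strand, 1 exon), the founding AP-1 subunit, had a peak of 6233 bp in replicate 1 and 3760 bp in replicate 2. The q scores were 759.9 and 351, which ranked 106 and 86, and the log2 ratios were 5.80 and 4.05. Junb (chr8:84976909-84978748, minus strand, 1 exon), whose product can oppose JUN at some targets, had widths of 7123 and 4864 bp. Its q scores were 439.7 and 217, its log2 ratios 4.75 and 3.64 and its ranks 958 and 447. In both replicates the order of q scores among the JUN genes was Jund, Jun, Junb, whereas by width Junb came ahead of Jun.

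The FOS genes encode partners that bind DNA as dimers with JUN proteins. Fos (chr12:85473890-85477274, plus strand, 4 exons) had a peak of 4158 bp in replicate 1 and 5161 bp in replicate 2, with a q score of 454 and 156 and a log2 ratio of 4.52 and 2.79. By log2 ratio the Fos peak stood at rank 2837 in replicate 1 and at rank 19113 in replicate 2, near the middle of that list. Fosb (chr7:19302696-19310045, minus strand, 4 exons) had widths of 3497 and 3097 bp and q scores of 254 and 107, with the log2 ratio at 3.84 and 2.93. Fosl2 (chr5:32136472-32157840, plus strand, 4 exons), which encodes FRA2, had widths of 4953 and 5061 bp and q scores of 400.1 and 174, with the log2 ratio at 4.98 and 3.22. The Fosl2 peak lay mostly before the RefSeq start, from 3848 bp upstream to 1104 bp downstream in replicate 1 and from 3820 to 1240 bp in replicate 2.

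Atf3 (chr1:191170296-191183333, minus strand, 4 exons), a stress-induced bZIP factor that pairs with JUN proteins, had the narrowest peak in replicate 2. Its widths were 3202 and 2074 bp, its q scores 288 and 132 and its log2 ratios 4.10 and 3.49. Replicate 2 also listed a second Atf3 promoter peak of 505 bp with a q score of 31.2, just above the threshold of the list, and it lay mostly within the single peak of replicate 1.

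The remaining genes are not AP-1 subunits. Egr1, a zinc finger factor on chromosome 18 with 2 exons, had a peak of 7506 bp in replicate 1 and 6989 bp in replicate 2, which ranked 149 and 12 by width. Its q scores were 433 and 224 and its log2 ratios 4.59 and 3.25. Ier2 (chr8:84661331-84662852, minus strand, 1 exon), a small nuclear protein of the immediate early response, had widths of 6925 and 6598 bp and q scores of 557 and 236, with the log2 ratio at 4.65 and 3.53. At 1522 bp Ier2 was the shortest of the 10 genes, and its peak was more than 4 times as long as the gene in both replicates.

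Myc (chr15:61985341-61990361, plus strand, 3 exons), a growth-promoting bHLH factor, had the weakest peak in both replicates. Its q score was 69.8 in replicate 1 and 45.6 in replicate 2, and its log2 ratio 3.70 and 2.39. Ranks by q score were 13494 and 14061, whereas by width (3194 and 2755 bp) the Myc peak ranked 1741 and 747. The Myc peak was thus wide and low. With a q score above 60 required in both replicates, 9 of the 10 genes kept a promoter peak, and Myc was the gene lost. Of the 13665 genes with a promoter peak in both replicates, 9216 kept one, which is 35.2% of all genes.

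**Figure D2:**
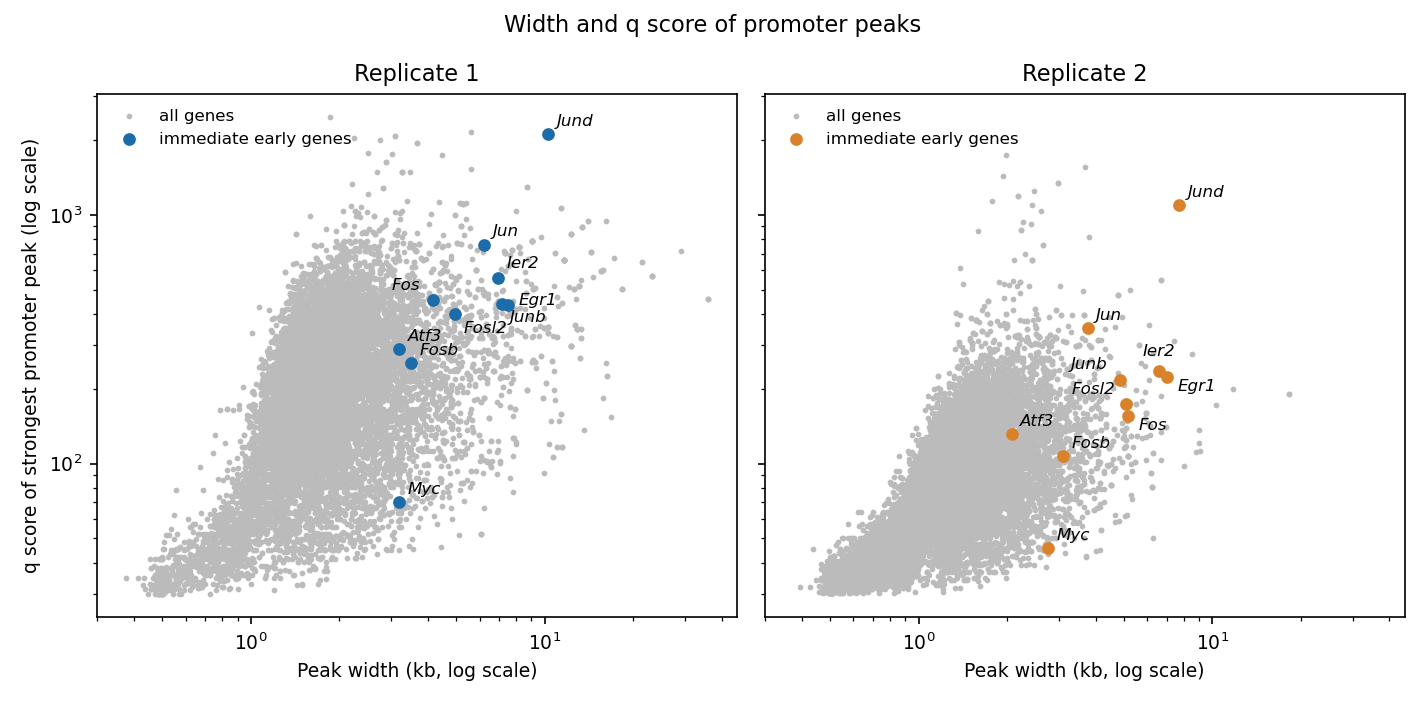
Width (horizontal, kb, log scale) and q score (vertical, log scale) of the strongest promoter peak in each replicate. Grey points are the 13665 genes with a promoter peak in both replicates and coloured points the 10 immediate early genes. Jund sits at the upper right in both panels (10292 bp and 2118 in replicate 1, 7692 bp and 1099 in replicate 2) and Myc near the bottom (69.8 and 45.6).

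The 10 genes differed from each other in q score far more than in width. In replicate 1 the q scores ran from 69.8 to 2118 and the widths from 3194 to 10292 bp, and in replicate 2 they ran from 45.6 to 1099 and from 2074 to 7692 bp. The median q score of the 10 was 437 in replicate 1 and 196 in replicate 2, against 199 and 82.7 over all genes with a promoter peak in both. Their median rank percentile by q score, counted from the strongest peak, was 1.68 and 1.84 (mean 1.76 ± 0.109, SD, n = 2), against 9.74 and 15.1. The top 1% of peaks by q score held the promoter peak of 3 of the 10 genes in each replicate (Jun, Jund and Ier2), against 3.06% and 1.97% of all genes. By width the top 1% held 6 in replicate 1 and 7 in replicate 2, against 2.6% and 1.7%. In both replicates it held Jun, Junb, Jund, Fosl2, Egr1 and Ier2, and 0.875% of all genes.

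Every strongest promoter peak of the set had a lower q score and a lower log2 ratio in replicate 2, as did 95.9% and 90.7% of all genes with a promoter peak in both. The median ratio of q scores, replicate 2 over replicate 1, was 0.460 for the 10 genes and 0.437 over all genes. The median difference in log2 ratio, replicate 2 minus replicate 1, was −1.33 and −1.11. Fewer peaks in replicate 2 and lower scores thus went together. The study reports more unique reads for the SOX3 ChIP-seq library with fewer peaks than for the other. The part of depth or enrichment in the lower scores was not tested. Widths followed less closely. The peak was narrower in replicate 2 for 8 of the 10 genes, against 86.9% of all genes, and wider for Fos and Fosl2.

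Several of these short genes lay inside their peak from end to end. In replicate 1 the whole of Jun, Junb, Jund, Egr1 and Ier2 lay within 1 peak, 5 of 10 genes against 2.65% of all genes, and in replicate 2 the same genes did except Jun, against 1.34%. Among genes no longer than 4 kb with a promoter peak in both replicates the share was 5 of 6 in replicate 1, against 29.1% of 2010 such genes, and 4 of 6 in replicate 2, against 16.5%. Jun was covered over 100% of its length in replicate 1 and 74.0% in replicate 2. For Fos the cover went the other way, from 53.6% to 89.1%. Myc changed little (54.6% and 52.5%), and Fosb had 70.9% and 47.3%. The long genes were covered only at their start, Fosl2 over 7.50% and 8.43% and Atf3 over 10.1% and 13.6%. The median cover was 85.4% and 81.5% (mean 83.5 ± 2.77, SD, n = 2), against 58.6% and 35.9% for the 2010 genes up to 4 kb with a promoter peak in both replicates and 8.78% and 5.39% for the 13665 genes of any length with one.

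Inside the genes but away from the start, peaks were few and low. There were 4 in replicate 1 (2 in Fosb, 1 in Fosl2 and 1 in Myc) and 4 in replicate 2 (2 in Fosb, 1 in Fosl2 and 1 in Atf3), with q scores from 32.6 to 73.1 and from 34.8 to 57.2. The only such peak present in both replicates lay over exon 4 of Fosb, where the q score was 73.1 in replicate 1 and 57.2 in replicate 2. At the edge of the promoter window the nearest peak inside that did not cover the start was the second Atf3 peak of replicate 2, 1515 bp from the start. The nearest outside were an Atf3 peak of replicate 1 at 2915 bp, a Junb peak of replicate 2 at 3105 bp and a Fosb peak of replicate 1 at 3169 bp.

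Within 20 kb of the genes, beyond promoter and body, 44 further peaks were listed in replicate 1 and 40 in replicate 2. Flanking peaks were not counted for other genes, so whether these numbers are high, low or usual was not tested. A peak was called matched when it overlapped a peak of the other replicate by at least 50% of the narrower, and 19 and 22 were matched. Of these, 14 and 15 lay more than 2 kb from the RefSeq start of any other gene. They were spread unevenly over the genes. Fos had 4 such matched peaks in each replicate, Jund and Fosb had 3, Ier2 had 2 and Egr1 had 1, while Jun, Fosl2, Atf3 and Myc had none. Junb had 1 in replicate 1 and 2 in replicate 2. Of the 2, the peak at chr8:84973219-84974309 was matched only to the Junb promoter peak of replicate 1. It also overlapped Prdx2, with a GENCODE Prdx2 start within 2 kb, and is included in the 22 and the 15.

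The highest q score of these in replicate 1 belonged to a peak upstream of Fos, at chr12:85454534-85456501 in replicate 1 and chr12:85454546-85456208 in replicate 2 (17389 and 17682 bp before the start). Its q score was 500.3 in replicate 1, above that of the Fos promoter peak (454), and 155.3 in replicate 2, where the promoter peak had 155.6. At 1968 and 1663 bp it was narrower than the promoter peak (4158 and 5161 bp). No RefSeq gene overlapped it and no GENCODE start lay within 2 kb of it. A further matched peak, downstream of the gene and 10551 bp from the Fos start in replicate 1 and 11510 bp in replicate 2 scored 261 and 91.5. Near Fosb, a peak at chr7:19318638-19320930 in replicate 1 and chr7:19319056-19320901 in replicate 2, 8593 and 9011 bp upstream of the start, had q scores of 250.02 and 180.2. In replicate 2 this was the highest q score of the flanking peaks and exceeded the Fosb promoter peak (107), whereas in replicate 1 the pair were nearly equal (254 at the promoter). It too overlapped no RefSeq gene and had no GENCODE start within 2 kb.

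Around Jund the matched peaks were low. The 3 upstream of it had q scores of 65.1, 84.6 and 95.9 in replicate 1 and 64.0, 84.6 and 55.4 in replicate 2, all far under the promoter peak. Myc had no peak in its 20 kb flanks in either replicate.

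**Figure D3:**
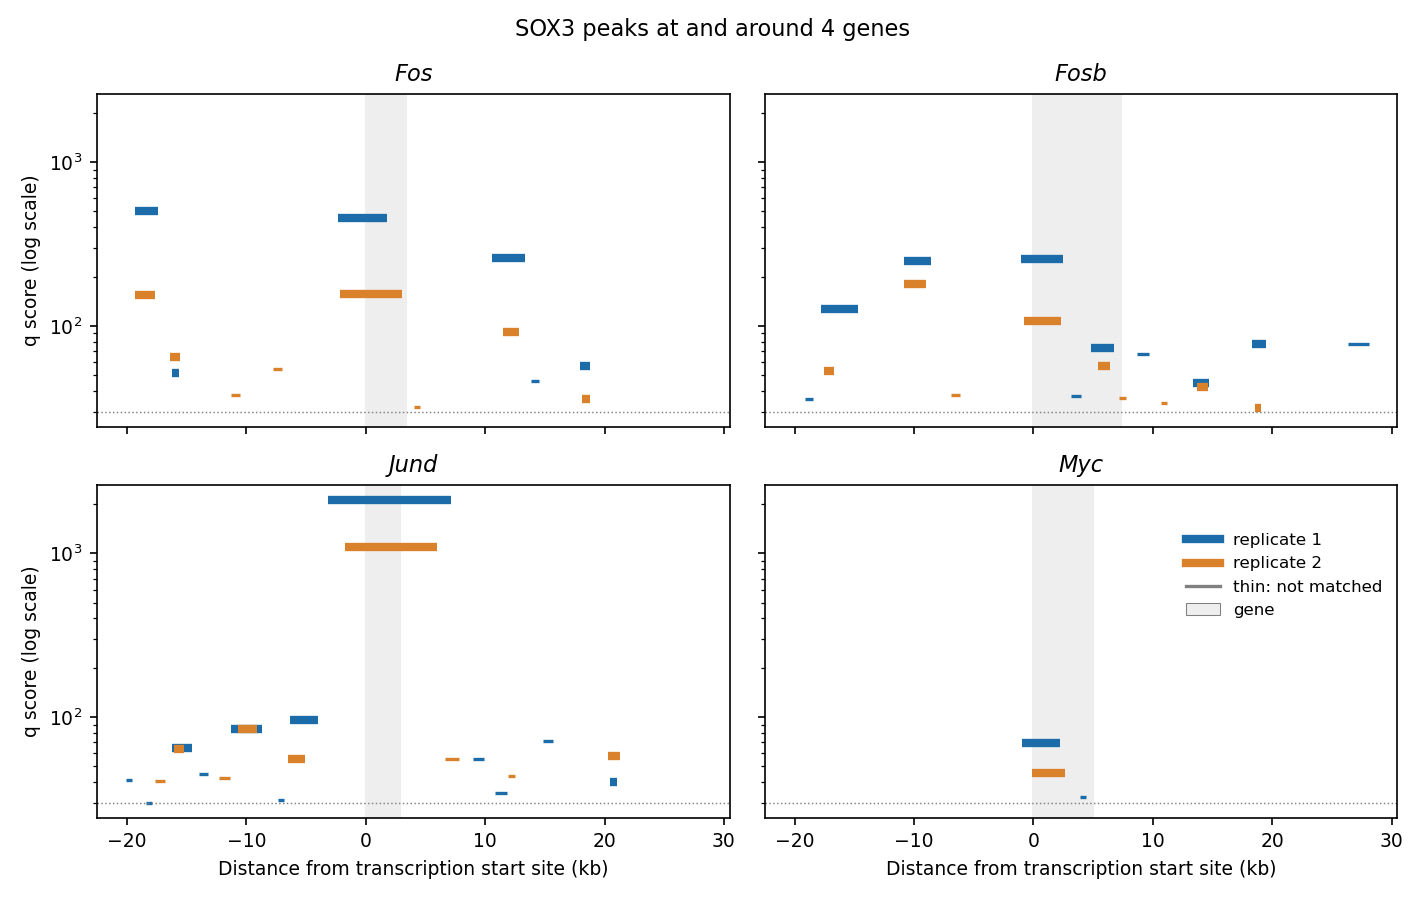
Peaks at and within 20 kb of Fos, Fosb, Jund and Myc. The horizontal axis is distance from the RefSeq start in kb along the direction of transcription and the vertical axis the q score on a log scale, bars span each peak, thick bars are matched between replicates, grey bands are the genes and the dotted line is the threshold of 30. The upstream Fos peak (500.3 and 155.3) stands level with the promoter peak (454 and 155.6), and Myc has no peak outside the gene and its promoter.

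The width of the peaks was set beside the CpG content of the DNA under them. A promoter was called CpG-rich when the observed over expected CpG ratio in the 500 bp on either side of the RefSeq start was above 0.6. That held for 9 of the 10 genes (0.714 to 0.910), against 43.5% of all genes. A promoter peak in both replicates was present at 89.2% of CpG-rich promoters and at 23.7% of the others. Among CpG-rich promoters with a peak in both, 3.75% had one of 3 kb or wider in both replicates, and 7 of the 9 immediate early genes did.

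Jund was the exception, with a ratio of 0.239 and 46.7% GC at its RefSeq start. The densest 500 bp of the locus, with 67 CpG dinucleotides and a ratio of 1.00, lay 1000 to 1499 bp downstream, still within the single exon of the RefSeq model. The only Jund start in GENCODE M21 lies there, 1210 bp downstream of the RefSeq start, and the ratio around it was 0.882 with 68.3% GC. For the other 9 genes a GENCODE start lay within 299 bp of the RefSeq start. The CpG-poor letters printed above for Jund are therefore those before the RefSeq start and not those before the GENCODE start. The same limit holds for the motifs found and not found before the Jund start. The bases just before the GENCODE start were not searched separately. Both starts lie inside the peak of both replicates.

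In all 10 genes the densest 500 bp of CpG between 5 kb upstream and 8 kb downstream of the start fell inside the stretch that the strongest promoter peaks of the 2 replicates shared. The same count was not made for other genes, so whether it is particular to these 10 was not tested. The shared stretch held 7.29 CpG per 100 bp at Jun, 5.91 at Junb and 4.04 at Jund. In the 1 kb beyond either edge of the peaks the values were 0.800, 0.700 and 1.20. At Fosl2 they were 6.66 inside and 1.65 outside, and at Myc 6.24 and 2.80, the highest outside value of the set. The median over the 10 genes was 5.80 inside and 1.22 outside. CpG density was higher inside for 10 of 10 genes, against 98.2% of the 10815 shared stretches of all genes, whose medians were 6.13 and 1.10. The median CpG content under these peaks was thus close to that of promoter peaks in general, while over the 328 shared stretches of 3 kb or more the medians were 4.89 and 1.20.

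**Figure D4:**
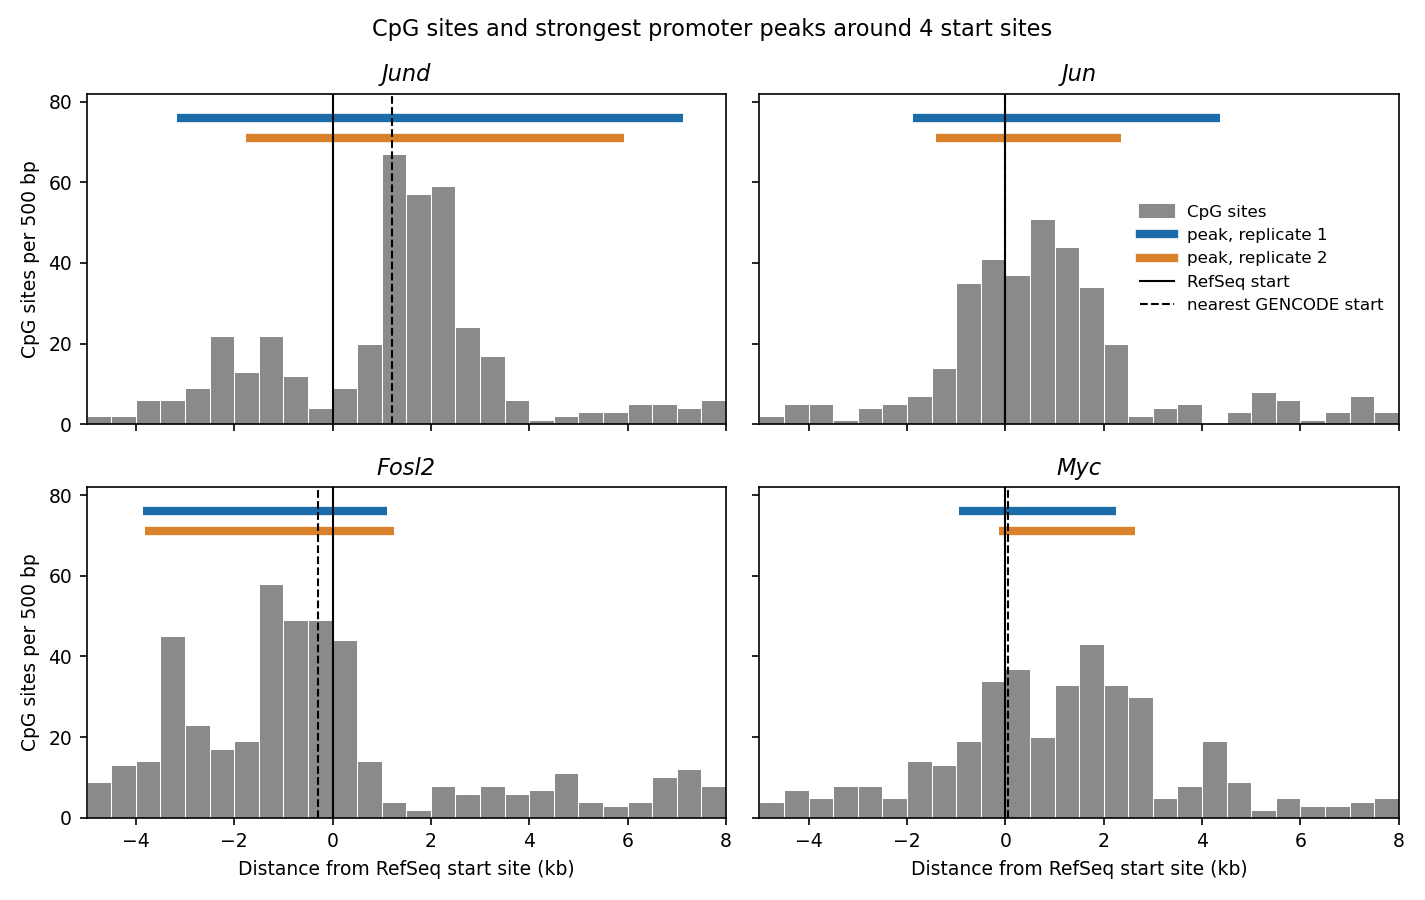
CpG dinucleotides per 500 bp (grey bars) from 5 kb upstream to 8 kb downstream of the RefSeq start of Jund, Jun, Fosl2 and Myc, with distance in kb along the direction of transcription. Coloured lines are the strongest promoter peak of each replicate, the solid vertical line is the RefSeq start and the dashed line the nearest GENCODE start. The Jund maximum of 67 lies at the GENCODE start, 1210 bp from the RefSeq start, and at Fosl2 the CpG-dense stretch and the peak both lie mostly upstream.

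The shared stretches were also searched for short words on both strands. The SOX-type word ACAAAG occurred 32 times in the 46196 bp of the 10 genes (0.693 per kb), against 0.592 per kb over all shared stretches and 0.655 per kb over those of 3 kb or more. AACAAT occurred 6 times (0.130 per kb), against 0.227 and 0.242 per kb. Jund and Egr1 held 7 ACAAAG and 2 AACAAT each, the most of the set, in the longest stretches (7692 and 6989 bp). Atf3 and Myc, with the shortest stretches (2074 and 2372 bp), held neither word. The AP-1 site TGACTCA occurred 7 times (0.152 per kb), against 0.107 and 0.122 per kb, with 2 each at Jund and Ier2 and 1 each at Atf3, Fosl2 and Egr1. The full cAMP response element occurred 2 times, at Jund and Ier2 (0.0433 per kb against 0.0411 and 0.0365). These are counts of letters in wide regions, with no bound position implied.

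To see how far the pattern extended, 52 further genes of the immediate early response and of AP-1 and its partner families were taken from a list. A promoter peak was present in 48 in replicate 1, 50 in replicate 2 and 47 in both, against 62.7%, 54.7% and 52.2% of all genes. A peak of 3 kb or more was present in 25 of the 52 in replicate 1 and in 11 in replicate 2, against 10 and 8 of the 10 genes and 7.68% and 2.26% of all genes. The median width of the 47 was 3179 and 1999 bp and the median q score 373 and 116. Of the 52, 45 had a CpG-rich promoter by the measure above. A promoter peak in both replicates was present in 43 of these 45, against 89.2% of all CpG-rich promoters. Of the other 7 genes 4 had one, against 23.7% of all other promoters.

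By mean rank of the q score the first 3 of this list were Klf4, Atf4 and Zfp36l2. Klf4, a zinc finger factor known from pluripotent cells, had q scores of 1128 and 390.3 and widths of 4351 and 4455 bp. Atf4, a bZIP factor of the stress response, had 886 and 395 with widths of 5585 and 3320 bp, and lay entirely inside peaks in both replicates. Zfp36l2, which encodes an RNA-binding protein of mRNA decay, had 834 and 314 with widths of 4500 and 4183 bp. Each of the 3 had a higher q score than Jun in replicate 1, and all 3 stayed below Jund in both replicates. Of the families in the list, a promoter peak in both replicates was present in 4 of 4 KLF, 4 of 4 DUSP, 3 of 3 EGR, 3 of 3 NR4A, 3 of 3 ZFP36 and 3 of 3 IER genes. In the BATF family, AP-1 partners best known from lymphocytes, it was present in 0 of 3. Over all genes the share was 52.2%, with 89.2% at CpG-rich promoters and 23.7% at the others. Whether such small families differ was not tested. Batf and Batf3 had a peak in replicate 2 only (q scores 34.5 and 62.4) and Batf2 had none in either list. The remaining genes short of 2 replicates were Elk1 (replicate 2, 32.2) and Elk3 (replicate 1, 54.4), ETS partners of SRF. The families, and Batf, Batf3, Elk1 and Elk3, were named after their values had been seen.

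Relatives of Egr1, of Myc and of the FOS genes were set beside them. Over Egr2, Egr3 and Egr4 the widths ran from 3155 to 4011 bp in replicate 1 and from 683 to 2823 bp in replicate 2, under the 7506 and 6989 bp of Egr1. Their q scores ran from 82.6 to 192 and from 39.2 to 73.7, under the 433 and 224 of Egr1. Mycn and Mycl, by contrast, had q scores of 258 and 148 in replicate 1 and of 142 and 80.4 in replicate 2, all above those of Myc. By width Mycn (7195 and 2849 bp) lay above Myc and Mycl (2119 and 974 bp) below it in both replicates. Fosl1, a further FOS gene, had widths of 2340 and 1736 bp and q scores of 71.6 and 52.8. These were under the values of Fos, Fosb and Fosl2 in both replicates. Fosl1 and the 3 EGR and 2 MYC relatives were also singled out after their values had been seen.

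The genes whose promoter peaks were most like that of Jund were found from 6 values, the log2 width, log2 q score and log2 ratio in each replicate, each divided by its SD over 13663 genes. The measure was the Euclidean distance, and the genes of the Jund peak were left out. The nearest were Rnu3b1 (a U3 small nucleolar RNA gene, distance 1.85), Brd2 (a bromodomain protein, 1.86), H2-DMa (which shares the Brd2 peak, 1.86), Actb (cytoplasmic actin, 2.49) and H2ax (a histone variant, 2.73). Their widths ran from 5410 to 13998 bp in replicate 1 and from 3639 to 6682 bp in replicate 2. None of the other 9 immediate early genes was among the 5.

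ChIP-nexus gave no peak near any of the genes. The lists held 111 and 19 peaks, and 0 of 10 genes had one within 2 kb or within 10 kb in either replicate. The nearest peak lay 3362784 bp away in replicate 1 and 10669928 bp away in replicate 2. With so few peaks in these lists, the absence at a given gene says little about occupancy there.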

How the data were processed

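SOX3 ChIP-seq peak lists of 2 replicates and SOX3 ChIP-nexus lists of 2 replicates were used, with groups from the labels. According to the study's methods, reads were aligned to mm10 with Novoalign, a read with several placements was given one of them at random, and Picard took out duplicates. For ChIP-seq the authors ran USeq on each replicate, with 30 as the lowest q score kept. The columns of the deposited lists are unnamed, and their meaning (p score, q score and log2 ratio of ChIP over input) was inferred from the caller's layout and the values. The deposited ChIP-nexus lists are in the format of MACS2 (2.1.1 per the labels), with a score, fold enrichment, −log10 p and −log10 q, of which positions alone were used. How reads with several placements were handled could move peaks in repeats. The number of reads behind a peak is unknown.

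TSSs were those of 45756 curated RefSeq transcripts on GRCm38.p6, the assembly of mm10. A promoter was 2 kb either side of a TSS, and the strongest promoter peak was that with the highest q score. Peaks matched when they overlapped by 50% of the narrower. Ranks were taken over each whole list. CpG and motif counts were read from the genome and from the RefSeq promoter table. In the lists, 98.8% and 98.7% of q scores were tied with another peak, so low ranks are approximate. Peaks of 1 list did not overlap each other. Promoter assignment was checked against bedtools 2.31.1 (16417 and 14310 genes, 0 differences) and tested on simulated data. Python 3.11.15, numpy 2.4.6, pandas 2.3.3 and matplotlib 3.10.9 were used. Alternatives covered the q score minimum, the window, the annotation, joined peaks, the ranking and overlap measures and leaving out each replicate.

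The 10 genes, the wider list and the measures were chosen with earlier results of these data known, so no p-value was computed. All 10 genes were to be named, together with the genes of the wider list that had no promoter peak in either replicate, its 3 genes highest by mean rank of the q score, the 5 genes most like Jund and any gene whose start lay in a strongest promoter peak of the 10. Libraries of the other factors, of histone modifications and of input were not analysed here.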

Additional observations from a re-analysis of the deposited data

How the results depend on the processing

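Across 44 alternative values for the 7 main measures, 39 stayed within the spread between replicates or within 1.5 times the count, and 5 moved. Some of the 39 could not have moved. With 2 replicates, each replicate by itself always lies within the SD of their mean. The narrower promoter window could not drop a strongest promoter peak either, because every one of them covered the start. With a q score above 60 the median rank percentile was 5.59, since the lists are then shorter, and the median cover of the gene 80.7%. With GENCODE M21 transcripts, whose gene spans differ, the median cover was 77.7%. Ranked by log2 ratio the median percentile was 10.6, and ranked by width 0.417, so the standing of these peaks depends on the measure. Leaving out each replicate in turn gave 7692 to 10292 bp for the Jund peak, 4962.5 to 5593 bp for the median width, 1.68 to 1.84 for the median rank percentile, and 81.5% to 85.4% for the median cover. The count of genes with a promoter peak in both replicates was 9 with a q score above 60 and 10 under the other alternatives, and 0 genes had a ChIP-nexus peak under each alternative tried. No paired analysis was possible because no result came from a test between groups. Precision is limited by 2 replicates, by lists without read counts, and by a random placement of reads with several positions. Controls and the other factors were not analysed here, so whether these values are particular to SOX3 was not tested.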
